A study of Ovis aries with 23 samples.

Results

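Heart muscle bordering a myocardial infarct in adolescent sheep was compared with heart muscle of sham-operated adolescent sheep. The comparison used the 5 arrays titled adolescent border 1, 2 and 3 and adolescent sham 2 and 3, out of 23 arrays in the series. The border group came from sheep aged 6 months in which the left anterior descending coronary artery had been tied at its second diagonal branch, and the border tissue was taken 3 days later. Sham sheep of the same age had a sham operation; adolescent sham 1 is not analysed here. As side comparisons, 3 adolescent arrays of remote muscle and 3 of infarct tissue were used, together with 3 border and 3 sham arrays of fetuses operated on at 105 days of gestation. Total RNA of ventricular tissue was labelled with the dye Cy3 and hybridised to 1-colour ovine Agilent arrays. The labels give no breed, sex or animal number, so p-values here measure the spread between samples of a group, which may be partly technical. That spread was estimated over all 8 groups of the series together, not from the border and sham arrays alone. The sham group of 2 arrays, against 3 border arrays, limits the precision of every value below.

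The border zone is the strip of surviving muscle next to the dying core of an infarct. In the first days after a coronary artery is closed, monocytes and neutrophils enter the injured heart, macrophages clear dead muscle, and fibroblasts turn into myofibroblasts that lay down collagen. Adult heart muscle cells burn mostly fatty acids, rarely divide after birth, and commonly lower their contractile and mitochondrial transcripts when injured.

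Each gene was read from DNA probes of 60 bases. The probes of a few genes that carry the main patterns are shown in lower case, 5′ to 3′, as the array design gives them: a collagen, a myosin, a metabolic enzyme, a vascular growth factor, cell division genes and a clock gene.
COL1A1 probe 1: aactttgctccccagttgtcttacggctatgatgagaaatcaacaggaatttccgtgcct
COL1A1 probe 2: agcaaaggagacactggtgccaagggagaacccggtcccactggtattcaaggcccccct
MYH7 probe 1: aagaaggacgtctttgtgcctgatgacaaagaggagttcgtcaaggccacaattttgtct
MYH7 probe 2: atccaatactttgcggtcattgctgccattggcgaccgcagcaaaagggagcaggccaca
LDHA probe 1: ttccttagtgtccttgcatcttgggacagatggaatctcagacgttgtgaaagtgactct
LDHA probe 2: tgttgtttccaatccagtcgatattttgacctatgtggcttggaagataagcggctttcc
VEGFA probe 1: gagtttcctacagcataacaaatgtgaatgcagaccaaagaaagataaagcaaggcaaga
CCNA2 probe 1: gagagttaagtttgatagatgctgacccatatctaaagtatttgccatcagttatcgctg
TYMS probe 1: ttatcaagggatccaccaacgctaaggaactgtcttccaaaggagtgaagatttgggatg
DBP probe 1: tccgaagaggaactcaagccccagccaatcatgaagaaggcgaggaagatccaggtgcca
The COL1A1 probes share no run longer than 5 bases, and both read higher in border, by 2.63 and 2.91 on the log2 scale. The LDHA probes, which also share no run over 5 bases, read higher by 3.27 and 2.66. Both MYH7 probes read lower, by -2.25 for the first and -2.04 for the second. MYH7 and its paralog MYH6 have nearly identical sequences, so the MYH7 signal may include MYH6. The second VEGFA probe on the array overlaps the one shown by 59 bases and is no separate reading of the gene.

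Levels are given as log2 of the processed signal after subtraction of each array's 75th percentile, so that 0 is the brightness below which 75% of an array's probes lie. The 75th percentile was 672, 522 and 230 intensity units on border arrays 1, 2 and 3, and 246 and 129 on sham arrays 2 and 3. Sham arrays were thus dimmer than border arrays 1 and 2, while border 3 and sham 2 were nearly equally bright. The share of probes well above background was 78.6%, 79.0% and 64.4% on the border arrays and 69.2% and 61.0% on the sham arrays. Border arrays shared one slide position and sham arrays another, so that group cannot be told apart from slide position. For each gene the difference between border 3 and sham 2 is therefore also described, as a value between arrays of like brightness, chosen after the brightness of the arrays was seen. These arrays entered the calls too, so the sign of that value in a called gene is no independent check. Markers of heart muscle were bright on all 5 arrays, with TPM1 between 7.78 and 9.23 and myoglobin (MB) between 7.0 and 8.90.

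Of 12451 probes tested, limma called 1585 higher in border than in sham (12.7%) and 1611 lower (12.9%) at an adjusted p under 0.05. The median difference over all probes tested was -0.14. The calls higher in border were larger: 1192 were at least 2-fold and 497 at least 4-fold, against 854 and 55 of the lower calls. Every border value lay above every sham value for 2676 probes (21.5%) and below for 3573 (28.7%). Without border 1, border 2, sham 2 or sham 3, 1762, 1732, 1710 and 1801 probes were called in all, and without border 3, 4258.

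Few of these calls were kept with another background correction, which also added an offset. Normexp with an offset of 50 units was run on the raw signals, in place of the scanner software's own correction. With it, limma called 34 probes higher and 0 lower (720 at an unadjusted p under 0.05). Of the 101 called genes named below, TIMP1, LDHA and CTSB alone kept the call. A fixed offset weighs more on dim genes and dim arrays, such as the sham arrays. Its part in the lost calls and changed signs was not tested. With array brightness as a covariate over all arrays, 401 probes were called higher and 121 lower. The genes named below that kept their call with that covariate were TIMP1, PLAU, CTSB, MMP14, COL12A1, COL5A2, COL1A1, INHBA, CCN2, CNN1, TYMS, CCNA2, CCNB1, CDK1, IL1A, CXCR4, PTX3, CD40, LDHA, GAPDH and DBP. A fit on the 5 border and sham arrays alone called 411 of 12451 probes higher and 90 lower, and 38 of the 101 genes kept the call there. It called 0 of 6 oxidative phosphorylation, 0 of 7 antigen presentation and 0 of 9 T and NK cell genes, and 4 of 12 macrophage, 4 of 11 cell cycle and 4 of 10 extracellular matrix genes. With so few probes called in all, a count of 0 does not set a short list apart. CDK1, CLEC6A, IL10, IL1RN, PLAU, ICAM1 and the kappa light chain gene were well above background on 1 of the 2 sham arrays, and AQP4, FLT1, TEK and ISL1 on 2 of the 3 border arrays.

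Against remote muscle of infarcted hearts, border was called higher for 1603 probes (12.9%) and lower for 1620 (13%). Of the calls against sham, 1154 higher and 968 lower were also called in that direction against remote muscle. Infarct tissue was called higher than border for 1327 probes (10.7%) and lower for 1895 (15.2%). Of the probes called higher in border than in sham, 652 were higher still in infarct and 16 lower. Of those called lower in border, 810 were lower still in infarct and 10 higher. The 75th percentile was 757.2, 875.9 and 1345 units on infarct arrays 1, 2 and 3, and 356.4, 374.5 and 306.8 on remote arrays. All infarct arrays were thus brighter than all border arrays, and zone cannot be told apart from array brightness there. The count for border against remote was 3223 in all, and it was 1860 without border 1, 1592 without border 2 and 1880 without remote 2. For infarct against border it was 3222, and it was 1986 without infarct 3 and 1427 without border 3. With normexp 4 and 1701 were called. With the brightness covariate infarct was called higher than border for 65 probes and lower for 613, and in the authors' deposited values for 1934 and 1338, so that the more frequent direction turned. With the array median, border was higher than remote for 1280 probes and lower for 2226. The comparisons share the border arrays, so these counts are not independent of each other.

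A gene name could be given to 882 tested genes, each read from its brightest probe: 163 were called higher, 99 lower and 620 did not pass the threshold, with a median difference of -0.06. Named genes were thus called higher more often than lower, unlike all probes. The shares of all probes given beside the lists below, 12.7% higher and 12.9% lower, are therefore not those of named genes. They are shares in the main fit. Several refits called fewer probes in all, so list counts of a refit do not compare with these shares directly. The 12 named genes with the largest calls higher in border, 11 of the 12 with the largest calls lower, and gene lists for the cell types and pathways of a healing infarct, are described below.

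**Figure D1:**
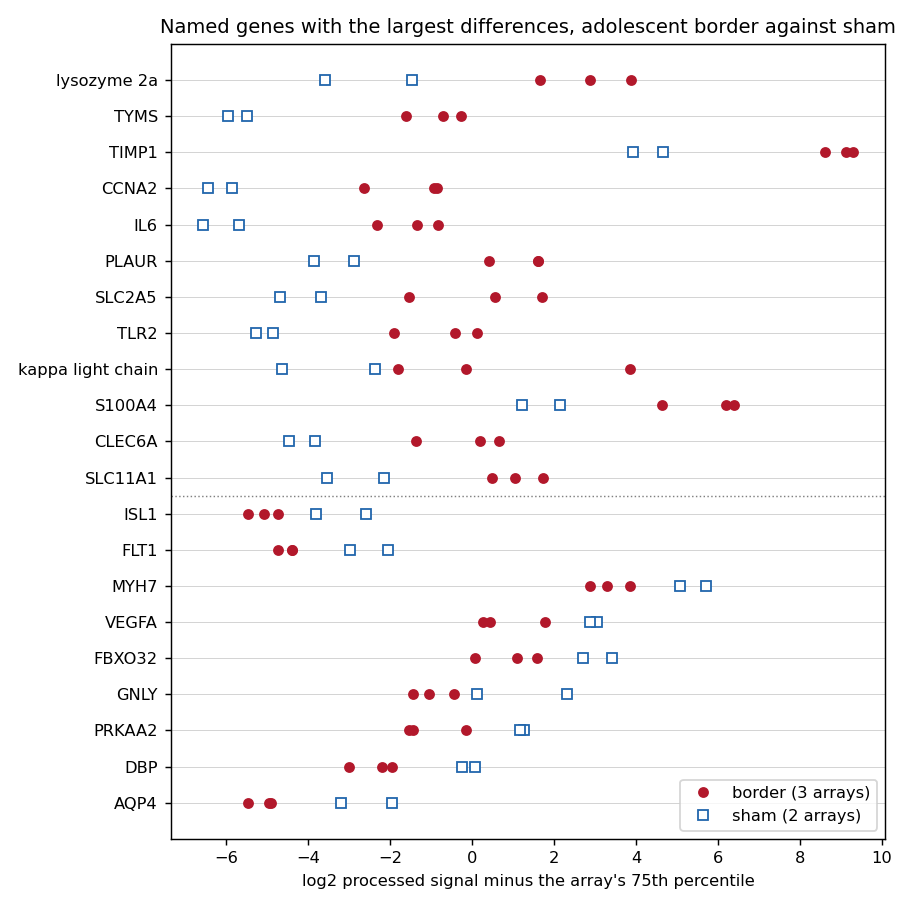
Log2 level, scaled to each array's 75th percentile, of the 12 named genes with the largest calls higher in border (above the dotted line) and 9 of the 12 with the largest calls lower. Each filled circle is 1 of 3 border arrays and each open square 1 of 2 sham arrays; GRM5 and FSHR, not well above background on any of these arrays, are left out. Circles and squares do not overlap for any gene shown.

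Most markers of macrophages and monocytes, the cells that clear dead tissue, rose: of 12 tested, 9 were called higher (against 12.7% of all probes) and 0 lower. The median difference was 2.45, against -0.14 over all probes. The mean level of the list was 1.56, 1.52 and 0.27 on the border arrays and -1.43 and -0.80 on the sham arrays. All 3 border arrays lay above both sham arrays, with border 3 lowest among them. Without border 1, 2 and 3 and sham 2 and 3 in turn, 3, 3, 10, 2 and 5 were called higher. With the brightness covariate 0 were called and the median difference was 1.42. Against remote muscle 5 of the 12 were called higher and 0 lower, and between infarct and border 0 were called. In bulk tissue, more cells of a type and more RNA per cell cannot be told apart.

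Among these markers, CD14, the co-receptor for bacterial lipopolysaccharide, measured 0.88, 0.24 and -0.53 on border arrays 1, 2 and 3 and -2.64 and -2.17 on sham arrays 2 and 3. All border values lay above both sham values, a difference of 2.60 ± 0.56 (log2, SE), or 6.07-fold (adjusted p = 0.00352). Legumain (LGMN), a lysosomal protease, measured 5.25, 5.47 and 4.16 in border and 2.74 and 2.18 in sham. Its groups did not overlap either, and it rose 5.67-fold (adjusted p = 0.00255). Cathepsin S (CTSS), which trims antigens for presentation, rose 6.78-fold (adjusted p = 0.00644), and the Fc receptor gamma chain FCER1G rose 5.06-fold (adjusted p = 0.0109). SLC11A1, a metal transporter of the macrophage phagosome, stood at 1.74, 1.04 and 0.50 in border and at -3.54 and -2.14 in sham, 15.3-fold higher (adjusted p = 0.0275). CLEC6A, a C-type lectin that binds fungal sugars, rose 15.6-fold (adjusted p = 0.0111). SLC11A1 lost the call without border 1, border 2, sham 2 or sham 3, FCER1G without border 1, border 2 or sham 2, and CTSS and CLEC6A without sham 2 (adjusted p 0.0522 to 0.169).

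The largest called increase of any named gene was that of the lysozyme 2a gene (LOC443321), which encodes an enzyme that cleaves bacterial walls. It measured 3.88, 2.88 and 1.65 in border and -3.58 and -1.46 in sham. Both groups were widely spread and did not overlap, and the difference was 5.33 ± 1.34 (log2, SE; 40.2-fold, adjusted p = 0.00861). Sheep carry several closely related lysozyme genes, so the signal cannot be assigned to this copy with certainty. The lysozyme 2a gene lost the call without sham 2 (adjusted p 0.096).

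Of 16 innate sensing genes tested, 6 were called higher (against 12.7% of all probes), 0 lower and 10 did not pass, with a median of 0.96 that turned to -0.34 with normexp. The number called higher was 4 without border 1, border 2, sham 2 or sham 3 and 1 with the brightness covariate. Toll-like receptor 2 (TLR2), a sensor of bacterial lipoproteins and of products of damaged cells, measured 0.12, -0.42 and -1.91 in border and -4.85 and -5.27 in sham. It was not well above background on either sham array, which makes it at least 11.7-fold higher in border (adjusted p = 0.00186). PLAUR, the receptor for the protease urokinase, read 1.60, 1.61 and 0.42 in border and -3.85 and -2.87 in sham, 23.7-fold higher (adjusted p = 0.00138). Neither gene's border values came near its sham values. The pattern recognition protein PTX3 was not well above background in sham and was at least 2.77-fold higher (adjusted p = 4.51e-04), but its difference was -0.20 with normexp. Of complement genes, 1 of 3 tested was called: C5AR1, the receptor for the chemoattractant C5a, rose 7.17-fold (adjusted p = 0.00871). C5AR1 lost the call without sham 2 (adjusted p 0.0715).

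Cytokines were raised in part: 5 of 12 tested were called higher (against 12.7% of all probes) and 0 lower, with a median of 0.99. Interleukin 6 (IL6), a fever and acute phase cytokine, measured -0.82, -2.31 and -1.33 in border against -6.56 and -5.67 in sham. No sham array had it well above background, so that it was at least 7.13-fold higher (adjusted p = 0.00579). IL1A, an alarm cytokine released from dying cells, was likewise not well above background in sham and was at least 3.18-fold higher (adjusted p = 0.00149); its difference was -0.24 with normexp. IL10, which restrains macrophages, rose 5.4-fold (adjusted p = 0.00526) and MIF, a macrophage migration factor, 2.03-fold (adjusted p = 0.0225). IL18, matured by the inflammasome, rose 4.4-fold on its brightest probe (adjusted p = 0.00122), but its 3 tested probes disagreed, from -1.91 to 2.21. The count higher was 4, 4, 5, 2 and 4 without border 1, 2 and 3 and sham 2 and 3 in turn. MIF lost the call without border 1, border 2, sham 2 or sham 3, and IL6 and IL10 without sham 2 (adjusted p 0.0503 to 0.113).

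Other classic infarct cytokines did not pass the threshold. IL1B stood at -3.86, -3.64 and -4.30 in border and -5.44 and -4.34 in sham (adjusted p = 0.233), and the neutrophil chemokine CXCL8 at -2.56, -1.64 and -2.70 in border and -4.57 and -5.60 in sham (adjusted p = 0.0557). The border values of both lay above the sham values, with a narrow gap for IL1B, and both differences turned negative with normexp, at -0.54 and -0.14. Both were higher in infarct than in border, IL1B by 2.10 (adjusted p = 0.00726) and CXCL8 by 4.07 (adjusted p = 0.0043). Against 12.7% of all probes, 2 of 7 cytokine receptor and signalling genes were called higher. These were IL1RN, the natural blocker of the interleukin 1 receptor, at 11.6-fold (adjusted p = 0.0248), and CXCR4, the receptor that draws cells to CXCL12, at least 2.54-fold higher (adjusted p = 5.43e-04; -0.27 on the log2 scale with normexp). Leaving out border 1, 2 and 3 and sham 2 and 3 in turn gave 1, 1, 2, 1 and 2 calls higher. IL1RN lost the call without border 1, border 2 or sham 2 (adjusted p 0.086 to 0.22).

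Of 7 antigen presentation genes, 4 were called higher, against 12.7% of all probes: CD40 (3.11-fold, adjusted p = 3.45e-04), CTSS, CD86 (5.28-fold, adjusted p = 0.0256) and CD1D (2.0-fold, adjusted p = 0.0221). CD40 and CD86 are co-stimulators on antigen presenting cells and CD1D presents lipids. CD40 turned to -0.13 with normexp, and its 2 probes read 0.46 and 1.64. In turn without border 1, 2 and 3 and sham 2 and 3, 2, 2, 5, 1 and 3 members were called higher. Interferon genes were split. The receptor chains IFNAR1 (2.17-fold, adjusted p = 0.00229) and IFNAR2 (2.7-fold, adjusted p = 0.00688) rose, and the other 7 of 9 tested, which include the interferon-induced MX1 (-1.15, adjusted p = 0.138) and CXCL10 (-1.91, adjusted p = 0.134), did not pass. The list's median was -0.36, and its 2 higher calls of 9 stand beside 12.7% of all probes. CD1D lost the call without border 1, border 2, sham 2 or sham 3, CD86 without border 1, border 2 or sham 2, and IFNAR2 without sham 2 (adjusted p 0.053 to 0.203).

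Markers of other blood cells gave few calls higher in border. Of T and NK cell markers, 4 of 9 tested fell (against 12.9% of all probes) and 0 rose, with a median of -0.79. CD3E, a chain of the T cell receptor complex, measured -0.12, -0.23 and 0.19 in border and 0.91 and 1.47 in sham (adjusted p = 0.0118). Its groups did not overlap, with sham 3 highest. The other 3 were CD3D (adjusted p = 0.0187), CD3G (adjusted p = 0.0433) and granulysin (GNLY), a toxin of killer cells, at -1.05, -1.43 and -0.44 in border and 0.12 and 2.31 in sham (adjusted p = 0.0281). GNLY was 1 of the 12 largest decreases, with sham 3 well above sham 2. The mean level of the list was -2.69, -2.76 and -2.50 on the border arrays and -2.39 and -1.18 on the sham arrays, so that sham 3 stood apart from the other 4 arrays, and without it 0 of the 9 was called. CD3G and GNLY lost the call without border 1, border 2 or sham 3, CD3D without border 1 or sham 3, and CD3E without sham 3 (adjusted p 0.0658 to 0.427). The log2 difference moved to -3.28 for GNLY without sham 2, -1.09 for GNLY without sham 3, -0.65 for CD3D without sham 3 and -0.69 for CD3G without sham 3.

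Of 5 neutrophil markers, 1 was called higher (against 12.7% of all probes) and 0 lower, with a median of 0.37. The called gene was ITGB2 (6.88-fold higher, adjusted p = 0.0172), an integrin that macrophages carry too. The neutrophil genes CATHL3 (-1.41) and CATHL1B (-0.73) read lower in border and did not pass. MMP9, a neutrophil gelatinase, measured -2.54, -4.07 and -6.36 in border and -7.00 and -5.88 in sham; border 3 lay between the sham values and the difference did not pass (adjusted p = 0.195; -0.35 with normexp). Of 2 B cell markers, CD40 was called higher (against 12.7% of all probes), while CR2 read -2.27 and did not pass, with a list median of -0.32. A kappa light chain gene (LOC100037688), part of antibodies, was among the 12 largest increases at 17.5-fold (adjusted p = 0.0177). Its values were -0.15, 3.85 and -1.79 in border and -2.36 and -4.62 in sham, with border 2 far above the other border arrays and border 3 only 0.57 above sham 2; its 5 probes read from 1.32 to 4.13. None of 3 mast cell, 3 erythroid, 1 platelet, 11 liver, 5 skeletal muscle, 1 epicardial or 2 nerve markers was called in either direction. Of 9 adipocyte markers, 2 were lower (against 12.9% of all probes), LPL and PLIN1 (adjusted p = 0.023), and 0 higher. ITGB2 lost the call without border 1, border 2, sham 2 or sham 3, PLIN1 without border 1, border 2 or sham 3, and the kappa light chain gene without border 2 or sham 3 (adjusted p 0.0547 to 0.295). The log2 difference moved to 2.52 for the kappa light chain gene without border 2 and -0.56 for PLIN1 without sham 3.

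**Figure D2:**
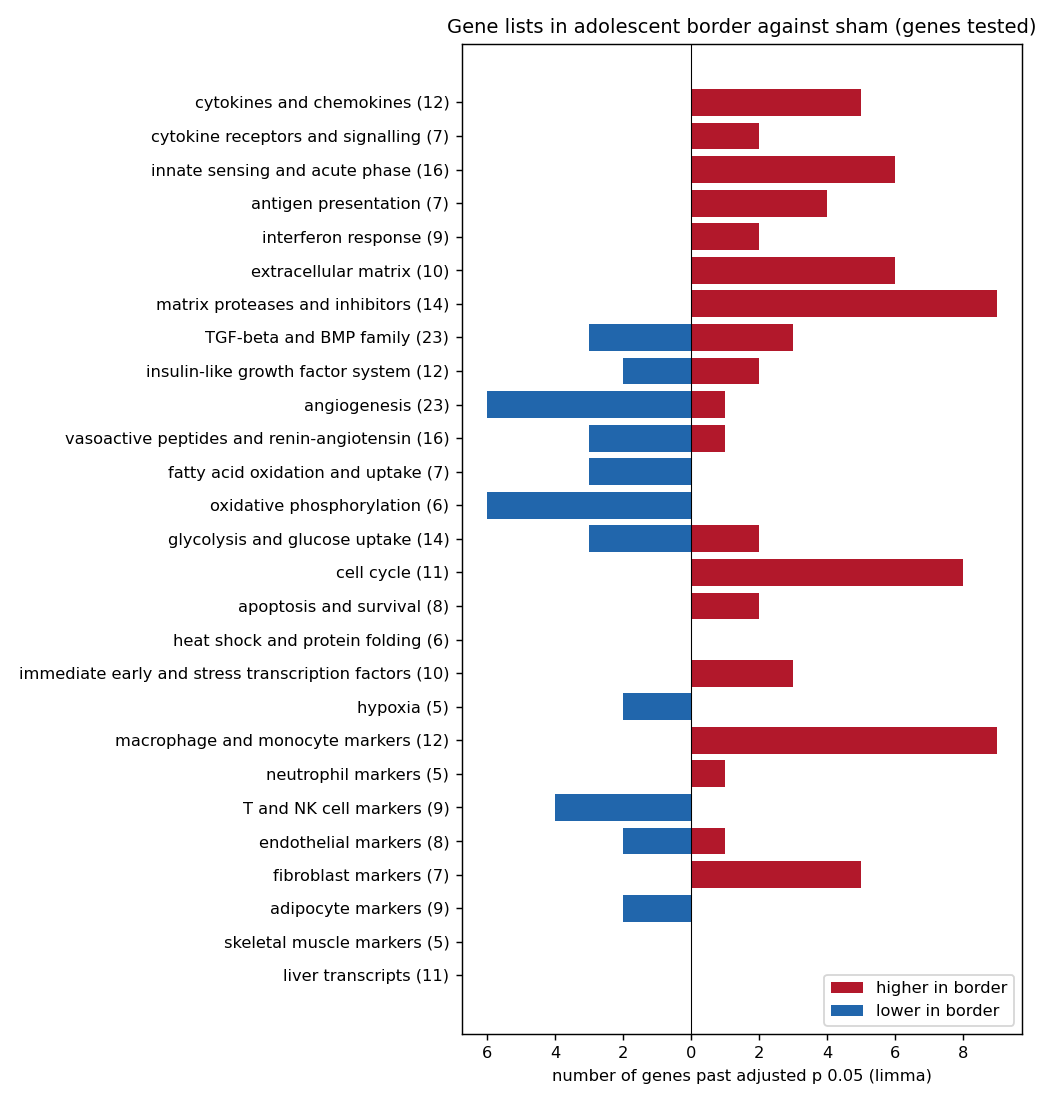
Number of genes called higher (red, to the right) and lower (blue, to the left) in adolescent border against sham at an adjusted p under 0.05, for the lists with at least 5 tested genes; the number tested is in brackets after the list's name. Inflammatory, matrix and cell cycle lists have calls to the right alone, and oxidative phosphorylation and T and NK cell lists to the left alone.

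Extracellular matrix genes rose: 6 of 10 tested were called higher (against 12.7% of all probes) and 0 lower, with a median of 2.22. COL1A1, a chain of the main scar collagen, measured 0.92, 1.89 and 0.46 in border and -1.58 and -1.51 in sham. Its lowest border value was well above both sham values, a rise of 6.21-fold (adjusted p = 0.00298). COL12A1, which bridges collagen fibrils, measured 1.63, 1.67 and 0.93 in border and -1.05 and -2.68 in sham, 9.71-fold higher (adjusted p = 1.45e-04). COL5A2, which sets fibril width, rose 6.27-fold (adjusted p = 2.03e-04), COL1A2 7.39-fold (adjusted p = 0.00766), COL3A1 6.95-fold (adjusted p = 0.011) and the proteoglycan biglycan (BGN) 3.48-fold (adjusted p = 0.00299). Against remote muscle all 6 were also called higher, by 1.33 for BGN to 2.88 for COL3A1. Between border and infarct, COL1A1, COL1A2 and COL3A1 gave infarct differences of 0.24, 0.29 and 0.32 that did not pass, whereas COL12A1, COL5A2 and BGN were higher still in infarct by 1.24, 1.21 and 1.14. COL3A1 lost the call without border 2 or sham 2, and COL1A2 without sham 2 (adjusted p 0.0583 to 0.0842).

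Fibroblast markers gave 5 calls of 7, all higher (against 12.7% of all probes), with a median of 2.63. COL1A1, COL1A2 and COL3A1 are among them. S100A4, a calcium-binding protein of fibroblasts and of macrophages, measured 6.40, 6.19 and 4.63 in border and 1.21 and 2.16 in sham. It was 1 of the 12 largest increases, at 16.6-fold (adjusted p = 0.00491). Vimentin (VIM), the filament of mesenchymal cells, rose 2.63-fold (adjusted p = 0.006). Without border 1, 2 and 3 and sham 2 and 3 in turn, 5, 4, 5, 1 and 5 were called higher. The single smooth muscle and myofibroblast marker tested, calponin 1 (CNN1), an actin-binding protein of contractile cells, measured 4.66, 5.88 and 5.82 in border and 1.81 and 2.13 in sham, 11.2-fold higher (adjusted p = 0.00326). Its border values all lay far above sham, also on the dim array border 3. S100A4 and VIM lost the call without sham 2 (adjusted p 0.0547 to 0.0601).

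Proteases that remodel matrix, and their inhibitors, gave 9 calls of 14, all higher (against 12.7% of all probes), with a median of 2.00. TIMP1, an inhibitor of matrix metalloproteinases, measured 8.61, 9.29 and 9.12 in border and 4.65 and 3.93 in sham. The groups were far apart and the rise was 26.3-fold (4.72 ± 0.72 on the log2 scale, adjusted p = 2.98e-04). The 3 border values of urokinase (PLAU), -1.06, -1.57 and -2.32, likewise lay above the sham values of -4.24 and -4.25. PLAU rose 6.02-fold (adjusted p = 6.12e-05), beside its receptor PLAUR. Cathepsin B (CTSB), a lysosomal protease, measured 4.21, 4.26 and 2.65 in border and -0.23 and 0.043 in sham and rose 13.9-fold (adjusted p = 2.70e-04). MMP14, the membrane-bound metalloproteinase, rose 3.71-fold (adjusted p = 0.00136), although its 4 probes ranged from 0.20 to 1.89, and the gelatinase MMP2 rose 2.12-fold (adjusted p = 0.00885). The infarct minus border difference of TIMP1, -0.42 ± 0.65 (log2, SE), did not pass (adjusted p = 0.667). MMP2 lost the call without sham 3 (adjusted p 0.166). The log2 difference moved to 0.66 for MMP2 without sham 3.

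The TGF-beta and BMP family, growth factors that drive scarring and restrain growth, gave 3 higher and 3 lower calls of 23 tested, shares near the 12.7% and 12.9% of all probes, with a median of -0.25. Among ligands, INHBA, the subunit of activin A, measured 0.73, 0.27 and 0.47 in border and -2.92 and -2.15 in sham. The border values were close together and clear of sham, 8.15-fold higher (adjusted p = 6.20e-04). TGFB2 rose 3.42-fold (adjusted p = 0.00568), while TGFB1 stood at 0.13, -0.14 and -1.42 in border and -0.95 and -1.24 in sham, overlapping, and did not pass (adjusted p = 0.15); its difference was negative with the brightness covariate. CCN2, a matricellular target of TGF-beta, measured 2.64, 2.64 and 3.67 in border and -0.87 and -0.65 in sham, 13.4-fold higher (adjusted p = 0.00123). Border 3, a dim array, had its highest value. The 3 lower calls were the activin receptor ACVR2A (2.0-fold, adjusted p = 0.0137), the signal transducer SMAD4 (3.24-fold, adjusted p = 0.0025; its 2 probes read -1.70 and -0.44) and the ovarian factor GDF9 (1.82-fold, adjusted p = 0.0192). GDF9 lost the call without border 1, border 2, sham 2 or sham 3, ACVR2A without sham 2 or sham 3, and TGFB2 without sham 2 (adjusted p 0.0551 to 0.0979).

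**Figure D3:**
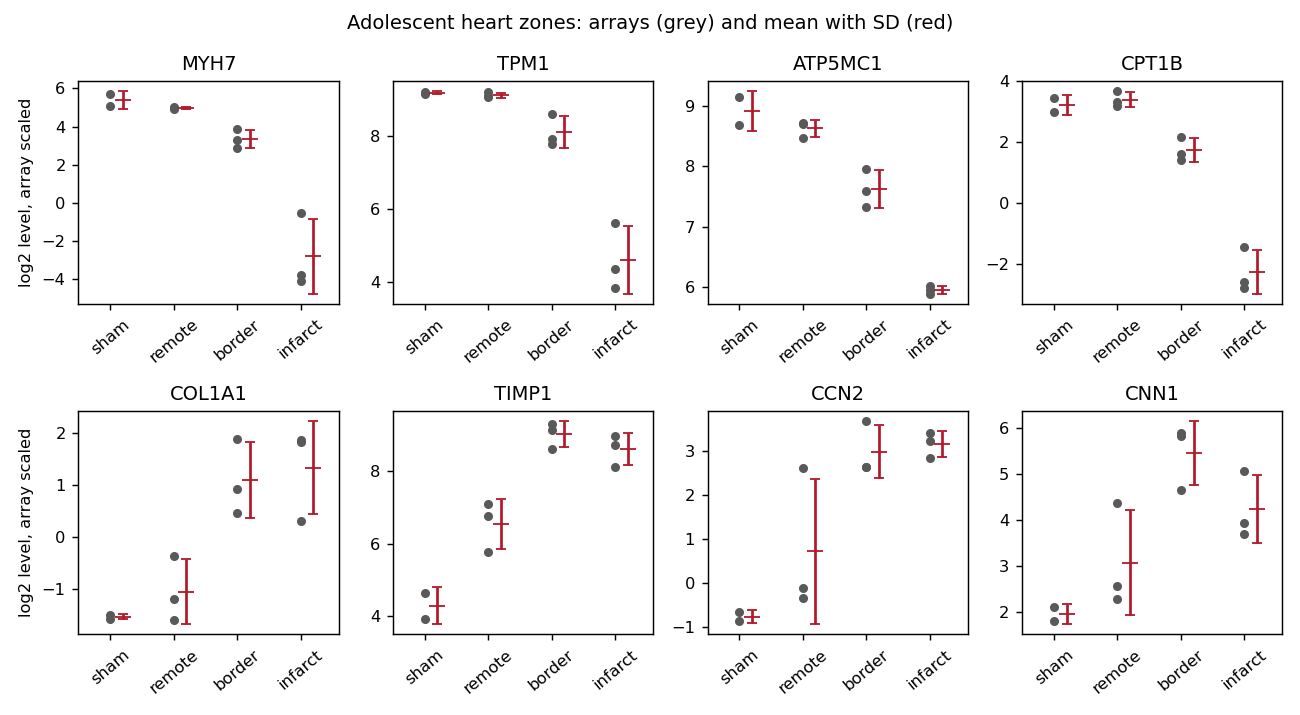
Log2 level, scaled to each array's 75th percentile, of 4 muscle genes (top) and 4 matrix and repair genes (bottom) in adolescent sham (2 arrays), remote, border and infarct tissue (3 arrays each). All infarct arrays were brighter than all border arrays. Grey points are arrays and red marks the mean with its SD; MYH7, TPM1, ATP5MC1 and CPT1B lie lower in border than in sham and lower again in infarct, and remote arrays of CCN2 run from -0.34 to 2.63.

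Cell division genes were raised in the border: 8 of 11 tested were called higher (against 12.7% of all probes) and 0 lower, with a median of 1.37. Thymidylate synthase (TYMS), which makes thymidine for DNA, measured -0.26, -0.70 and -1.61 in border and -5.49 and -5.96 in sham. It was not well above background on either sham array and was at least 11-fold higher (adjusted p = 6.24e-07). Cyclin A2 (CCNA2), which drives DNA replication, measured -0.84, -0.92 and -2.63 in border and -6.44 and -5.84 in sham, at least 7.25-fold higher by the same bound (adjusted p = 5.37e-06). In both genes border 3 was the lowest border array and was still far above sham. The mitotic cyclin CCNB1 measured 1.71, 1.63 and 0.38 in border and -2.52 and -2.71 in sham, 14.5-fold higher (adjusted p = 1.50e-05). Its partner kinase CDK1 rose 9.39-fold (adjusted p = 5.54e-05), and the replication clamp PCNA 2.68-fold (adjusted p = 0.00298). When single arrays were left out, 6 to 8 of the list were called higher, with 1 called lower without border 3, and 4 were called higher with the brightness covariate. All of TYMS, CCNA2, CCNB1 and CDK1 were also higher than in remote muscle, by 2.89 (CCNB1) to 3.45 (CDK1), and higher again in infarct, by 1.1 (TYMS) to 1.51 (CCNA2). 

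Contractile and energy genes of heart muscle were lower in the border. Of 3 sarcomere genes tested, MYH7 and TPM1 were called lower (against 12.9% of all probes) and 0 higher. With quantile normalization 0 of the 3 was called, and the list's median of -1.40 became -0.82 there and -0.45 in the authors' deposited values. The slow myosin heavy chain MYH7 measured 2.89, 3.30 and 3.86 in border and 5.72 and 5.06 in sham, 4.11-fold lower (adjusted p = 0.0471). Tropomyosin 1 (TPM1), which lies along the actin filament, measured 7.78, 7.94 and 8.60 in border and 9.17 and 9.23 in sham, 2.13-fold lower (adjusted p = 0.0341). Both had groups that did not overlap, with border 3 nearest to sham. Myoglobin (MB), the oxygen store of muscle, measured 7.05, 7.0 and 8.33 in border and 8.82 and 8.90 in sham, a difference of -1.40 that did not pass (adjusted p = 0.128). In infarct tissue these genes were far lower than in border, with log2 differences of -3.50 for TPM1, -5.35 for MB and -6.16 for MYH7 (adjusted p = 1.95e-06, 6.32e-06 and 4.18e-06). MYH7 and TPM1 lost the call without border 1, border 2, sham 2 or sham 3 (adjusted p 0.0984 to 0.215).

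All 6 oxidative phosphorylation genes tested were called lower, against 12.9% of all probes, with a median of -1.25. Their mean level was 3.87, 4.07 and 4.72 on the border arrays and 5.31 and 5.61 on the sham arrays. ATP5MC1, a subunit of the ring that turns in ATP synthase, measured 7.32, 7.59 and 7.95 in border and 8.68 and 9.14 in sham, 2.44-fold lower (adjusted p = 0.0012). The ATP synthase subunits ATP5MC2 (2.47-fold, adjusted p = 0.00363) and ATP5PO (2.31-fold, adjusted p = 0.00441) and the cytochrome oxidase subunit COX5A (2.75-fold, adjusted p = 0.0222) also fell. Border 3 was the border array nearest to sham for all 4, and over the list its median difference from sham 2 was -0.62. The count lower was 3, 3, 6, 3 and 3 without border 1, 2 and 3 and sham 2 and 3 in turn. With the brightness covariate, with normexp and in the fit on the 5 border and sham arrays alone, 0 were called. In those fits 121, 0 and 90 of 12451 probes were called lower in all. The median was -0.51 in the authors' deposited values, where 4 were called. COX5A lost the call without border 1, border 2, sham 2 or sham 3 (adjusted p 0.0589 to 0.131).

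Genes of fatty acid use were lower where called: 3 of 7 fell (against 12.9% of all probes) and 0 rose, with a median of -1.23. CPT1B, the muscle enzyme that admits fatty acids to mitochondria, measured 1.62, 1.42 and 2.16 in border and 3.46 and 2.97 in sham, 2.79-fold lower (adjusted p = 0.0163). PPARA, the transcription factor of fatty acid oxidation, fell 2.35-fold (adjusted p = 0.00599), and lipoprotein lipase (LPL), which frees fatty acids from blood lipids, 2.82-fold (adjusted p = 0.0218). PPARGC1A, a coactivator of mitochondrial genes, measured -2.42, -2.59 and -0.95 in border and 0.048 and -0.58 in sham and did not pass (adjusted p = 0.138). Every border value of these 4 genes lay below sham. Leaving out border 1, 2 and 3 and sham 2 and 3 in turn gave 1, 1, 3, 1 and 2 calls lower. SDHD of complex II fell 1.71-fold (adjusted p = 0.0353), 1 of 2 citric acid cycle genes tested. ATP1B1, a subunit of the sodium pump, fell 2.16-fold (adjusted p = 0.00885), 1 of 3 ion handling genes tested, while the gap junction gene GJA1 did not pass (-0.78, adjusted p = 0.098; 0.064 between border 3 and sham 2). LPL and SDHD lost the call without border 1, border 2, sham 2 or sham 3, CPT1B without border 1, border 2 or sham 2, and ATP1B1 without sham 2 (adjusted p 0.0535 to 0.135).

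Of 14 genes of glucose use tested, 2 were called higher and 3 lower, beside 12.7% and 12.9% of all probes, with a median of -0.85. Lactate dehydrogenase A (LDHA), which turns pyruvate into lactate, measured 4.0, 4.03 and 4.18 in border and 0.96 and 0.64 in sham. The border arrays agreed closely and stood clear of sham, 9.65-fold higher (adjusted p = 4.96e-05). SLC2A5, a fructose transporter also carried by macrophages, measured -1.54, 1.70 and 0.57 in border and -4.69 and -3.69 in sham, 21.6-fold higher (adjusted p = 0.00757). No sham array had it well above background, and this fold is the plain difference and no lower bound, so its size is uncertain. The log2 difference of SLC2A5, 4.43, ran from 3.70 to 5.32 when single arrays were left out. Against these, GAPDH measured 6.74, 6.46 and 6.69 in border and 7.79 and 7.53 in sham, 2.04-fold lower (adjusted p = 8.85e-04), and aldolase A (ALDOA) 5.89, 5.64 and 6.23 in border and 7.26 and 6.91 in sham, 2.24-fold lower (adjusted p = 0.00162). All 5 probes of GAPDH read lower, from -1.10 to -0.67. Hexokinase 1 (HK1) fell 1.73-fold (adjusted p = 0.0339). The insulin-dependent transporter SLC2A4 stood at 2.70, 3.19 and 3.82 in border and 4.71 and 5.07 in sham (adjusted p = 0.114), and SLC2A1 differed by 0.93 (adjusted p = 0.306; -0.38 with normexp); neither passed. HK1 lost the call without border 1, border 2, sham 2 or sham 3, and SLC2A5 without sham 2 (adjusted p 0.0695 to 0.159).

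Vessel growth genes were mostly lower where called: 6 of 23 tested fell and 1 rose, against 12.9% and 12.7% of all probes, with a median of -0.20. VEGFA, the growth factor of endothelial cells, measured 0.45, 0.26 and 1.79 in border and 3.05 and 2.89 in sham, 4.4-fold lower (adjusted p = 0.0164). Its receptor FLT1 measured -4.72, -4.39 and -4.38 in border and -2.04 and -2.98 in sham, 3.96-fold lower (adjusted p = 0.00637; 4 probes from -2.47 to -0.63). Neither gene's groups overlapped, and border 3 had the highest border value of VEGFA. TEK, the angiopoietin receptor, fell 3.46-fold (adjusted p = 0.00868) and EPAS1, an oxygen-regulated transcription factor, 3.43-fold (adjusted p = 0.00744). The one gene that rose was the TEK antagonist ANGPT2, not well above background in sham and at least 2.11-fold higher (adjusted p = 0.0258); normexp turned it to -0.17. In turn without border 1, 2 and 3, 3, 3 and 8 members were called lower and 0, 1 and 4 higher. The list's median was -0.61 without sham 2 and 0.12 without sham 3. Of 5 hypoxia genes, EPAS1 and VEGFA alone were called. HIF1A, the main oxygen-regulated factor, stood at -1.89, -1.78 and -1.20 in border and -2.84 and -2.28 in sham and did not pass (adjusted p = 0.083). Of 8 endothelial markers 1 rose, the adhesion molecule ICAM1 (2.76-fold, adjusted p = 0.0231; -0.0068 with normexp), and TEK and caveolin 1 (CAV1; 2.05-fold, adjusted p = 0.0106) fell. Without border 1, 2 and 3 in turn, 0, 0 and 4 endothelial markers were called higher and 1, 1 and 2 lower. VEGFA and ICAM1 lost the call without border 1, border 2, sham 2 or sham 3, ANGPT2 without border 1, sham 2 or sham 3, CAV1 without border 1, border 2 or sham 3, FLT1 and EPAS1 without sham 2, and TEK without sham 3 (adjusted p 0.0509 to 0.122).

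Receptors of vasoactive and steroid hormones gave 1 higher and 3 lower calls of 16, beside 12.7% and 12.9% of all probes, with a median of -0.41. The glucocorticoid receptor NR3C1 measured -0.99, -0.75 and 0.51 in border and 1.34 and 1.45 in sham, 3.5-fold lower (adjusted p = 0.0161). The mineralocorticoid receptor NR3C2 fell 2.17-fold (adjusted p = 0.0358) and the endothelin receptor EDNRA 1.94-fold (adjusted p = 0.0163). For NR3C2 the difference between border 3 and sham 2 was -0.19. GUCY1B1, a subunit of the nitric oxide receptor, rose 2.51-fold (adjusted p = 0.0414) but read -0.16 with normexp. The angiotensin receptor AGTR1 overlapped between the groups and did not pass (-1.01, adjusted p = 0.0633). Without border 1, 2 and 3 in turn, 0, 0 and 4 were called lower and 0, 0 and 3 higher. The list's median was -0.52 without sham 2 and -0.08 without sham 3. NR3C1, NR3C2, EDNRA and GUCY1B1 lost the call without border 1, border 2, sham 2 or sham 3 (adjusted p 0.0509 to 0.191).

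In the insulin-like growth factor system, 2 of 12 tested rose and 2 fell, near the 12.7% and 12.9% of all probes, with a median of -0.21. The binding proteins IGFBP4 (3.4, 3.54 and 2.78 in border, 1.84 and 1.90 in sham; 2.58-fold, adjusted p = 0.00266) and IGFBP2 (4.29-fold, adjusted p = 0.00908) rose. The growth factor IGF2 measured 2.89, 3.16 and 3.30 in border and 4.23 and 4.01 in sham, 2.0-fold lower (adjusted p = 0.0338), and the growth kinase MTOR fell 1.43-fold (adjusted p = 0.0299). IGF1 overlapped and did not pass (0.50, adjusted p = 0.529). IGF2 lost the call without border 1, border 2, sham 2 or sham 3, MTOR without border 1, border 2 or sham 2, and IGFBP2 without border 1 or sham 2 (adjusted p 0.0514 to 0.262). The log2 difference moved to 1.32 for IGFBP2 without sham 2 and -0.33 for MTOR without sham 2.

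The next lists are short, and of all probes 12.7% were called higher and 12.9% lower. Among 8 apoptosis genes, 2 were called higher and 0 lower. The death effector BAX rose 2.79-fold (adjusted p = 0.005) and its opponent BCL2 2.84-fold (adjusted p = 0.00912). Of 4 redox genes, thioredoxin (TXN) rose 1.88-fold (adjusted p = 0.013), and the superoxide dismutases SOD1 of the cytosol (1.7-fold, adjusted p = 0.0183) and SOD2 of mitochondria (2.3-fold, adjusted p = 0.0386) fell. Of 10 stress transcription factors, 3 rose and 0 fell: XBP1 of the unfolded protein response (2.52-fold, adjusted p = 0.0196), MYC (2.96-fold, adjusted p = 0.0283) and JUND (1.95-fold, adjusted p = 0.0324). None of 6 heat shock genes was called. JUND lost the call whichever 1 of the 5 arrays was left out, SOD1 and SOD2 without border 1, border 2, sham 2 or sham 3, TXN without border 1, border 2 or sham 2, XBP1 without border 1, sham 2 or sham 3, MYC without border 1, border 2 or sham 3, BCL2 without border 2 or sham 2, and BAX without sham 2 (adjusted p 0.0522 to 0.397). The log2 difference moved to 2.40 for MYC without sham 2 and 0.72 for MYC without sham 3.

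The remaining largest decreases were of mixed function. AQP4, a water channel, measured -4.90, -4.94 and -5.46 in border and -3.19 and -1.94 in sham, the largest called decrease of a named gene at 5.78-fold (adjusted p = 0.00118). The clock-controlled transcription factor DBP measured -2.20, -3.0 and -1.95 in border and 0.075 and -0.24 in sham, 4.93-fold lower (adjusted p = 1.27e-04). For both genes the groups stood well apart. PRKAA2, the muscle catalytic subunit of the energy sensor AMPK, measured -1.53, -1.43 and -0.13 in border and 1.26 and 1.17 in sham, 4.75-fold lower (adjusted p = 0.0208). FBXO32, the muscle ubiquitin ligase atrogin-1, measured 1.11, 0.068 and 1.58 in border and 3.41 and 2.71 in sham, 4.4-fold lower (adjusted p = 0.00283). In infarct, both were lower again than in border, with log2 differences of -5.19 for PRKAA2 and -2.94 for FBXO32 (adjusted p = 8.54e-06 and 4.19e-05). The transcription factor ISL1 of early heart progenitors also fell 3.73-fold (adjusted p = 0.027). GRM5 and FSHR passed the test (adjusted p = 0.0214 and 0.0191) but were not well above background on any border or sham array, so no fold is given. PRKAA2 lost the call without border 1, border 2, sham 2 or sham 3, ISL1 without border 1, border 3 or sham 3, FSHR without border 1, border 2 or sham 3, and GRM5 without border 2 or sham 3 (adjusted p 0.056 to 0.342). The log2 difference moved to -3.07 for GRM5 without sham 2 and -0.96 for GRM5 without sham 3.

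**Figure D4:**
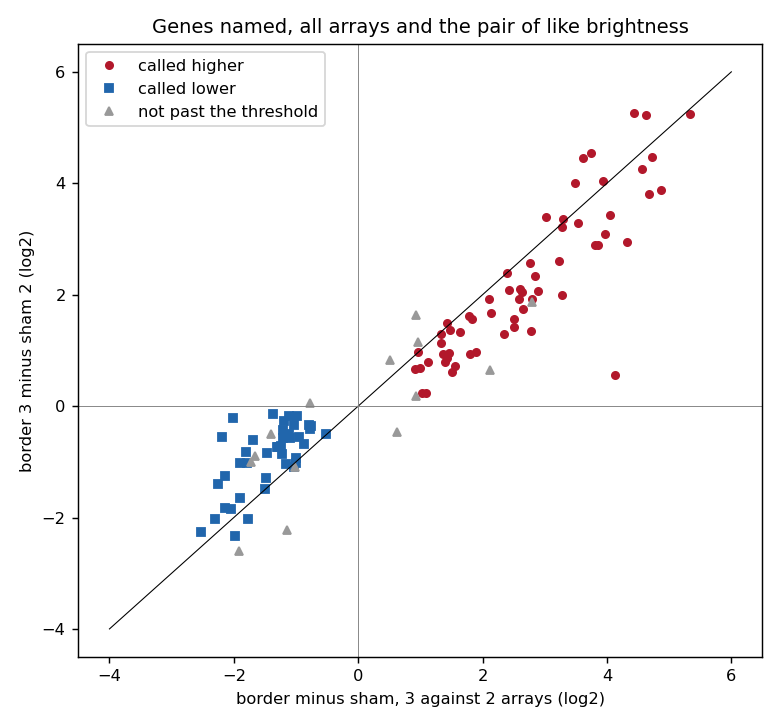
Log2 difference between border and sham for 115 genes named in the text, over all 3 border and 2 sham arrays (horizontal) and between border 3 and sham 2, whose brightness was nearly equal (vertical); the line marks equal values. The calls used both of these arrays, so the side of 0 on which a called gene lies is no independent check; among genes called higher (circles) the kappa light chain gene lies farthest below the line.

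Whether the border effect differed between the ages was tested as the difference of the 2 effects, adolescent minus fetal, which share no array. The 75th percentile was 595.9, 617.7 and 494.4 units on fetal border arrays 1, 2 and 3, and 772.7, 567.1 and 752.4 on fetal sham arrays. Fetal sham 1 and 3 were thus brighter than all fetal border arrays, whereas adolescent sham arrays were dimmer than adolescent border 1 and 2. The imbalance in brightness ran in opposite directions at the 2 ages. Of 12451 probes, 226 passed (1.82%): 191 with a more positive effect in adolescents and 35 with a more negative one. Cell cycle genes were among them. CCNA2 measured -0.81, -0.88 and -1.44 in fetal border and -1.13, -1.15 and -0.36 in fetal sham, overlapping, and its effect was larger in adolescents by 4.84 ± 0.60 (log2, SE; adjusted p = 4.40e-04). TYMS measured -0.69, -1.24 and -1.51 in fetal border and -1.87, -2.03 and -1.37 in fetal sham, with an effect larger in adolescents by 4.26 (adjusted p = 1.90e-04). For both genes fetal sham lay well above adolescent sham and close to adolescent border. Neither gene was well above background on either adolescent sham array, so the sizes of both differences are uncertain. CCNB1 (adjusted p = 0.00394) and CDK1 (adjusted p = 0.00769) passed as well, 4 of the 11 cell cycle genes in all. The other genes named above that passed were LDHA, INHBA, PTX3, PLAU, CXCR4, GAPDH, ALDOA and DBP. For none of the main inflammatory and matrix genes CD14, TLR2, IL6, COL1A1 or TIMP1 did the difference pass (adjusted p = 0.41, 0.22, 0.699, 0.217 and 0.0826), which does not show that their effects were alike. The count of 226 was 1273 without adolescent border 3 and 64 without adolescent border 1. It was 130, 113, 64, 96, 72, 143 and 120 without fetal sham 1, fetal border 2, fetal border 3, fetal sham 3, adolescent border 2, adolescent sham 2 and adolescent sham 3. With the brightness covariate 15 passed, 13 more positive and 2 more negative, and with array weights 735 and 606. In the authors' deposited values 93 were more positive and 87 more negative, and the split of 191 and 35 was not seen there. With normexp 0 passed (122 at an unadjusted p under 0.05).

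**Figure D5:**
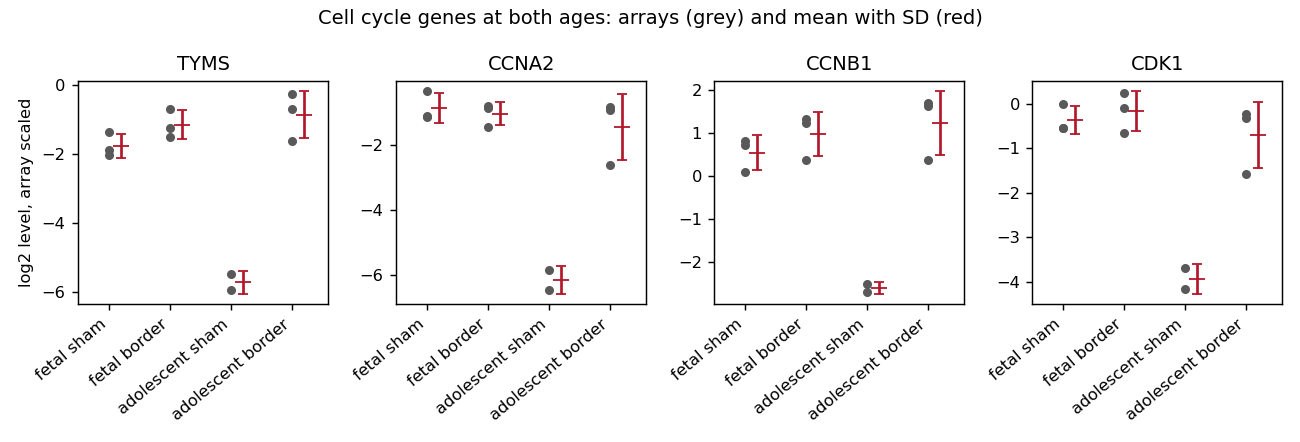
Log2 level, scaled to each array's 75th percentile, of TYMS, CCNA2, CCNB1 and CDK1 in fetal sham, fetal border, adolescent sham and adolescent border. TYMS and CCNA2 were not well above background on either adolescent sham array. Grey points are arrays (2 for adolescent sham, 3 for the other groups) and red marks the mean with its SD; adolescent sham lies below the other 3 groups for all 4 genes.

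Of 32 genes listed to be reported in any case, 24 were on the array with a name and 23 were tested, of which 9 were higher and 4 lower. The 9 were IL6, CD14, COL1A1, COL3A1, TIMP1, MMP2, VIM, S100A4 and CDK1, and the 4 were VEGFA, MYH7, CPT1B and IGF2. Those tested that did not pass were IL1B, CXCL8, MMP9, TGFB1, HIF1A, PPARGC1A, SLC2A4, SLC2A1, IGF1 and AGTR1. The osteopontin gene SPP1 did not meet the signal filter.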

How the data were processed

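Scanner files of 23 arrays were used. Per the file headers, Feature Extraction 10.1.1.1 corrected background and gave each spot an intensity (the deposited processed signal); the submitters' processing notes name limma without a version. The authors' deposited table, used as an alternative, holds values taken as log2: column medians were 9.27 to 9.29 on the border and sham arrays, and each of those 5 columns correlated best with its own array (r from 0.971 to 0.981). Its normalization and centring are not given in the sources used here.

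Control spots and outlier flags were left out, log2 intensities were averaged per probe, and each array's 75th percentile was subtracted. Of 15008 probes, 12451 were tested, those well above background on at least 2 arrays of 1 of the 8 groups. limma 3.58.1 (R 4.3.3) was fitted over all 8 groups, which share 1 estimate of the spread, and p-values were adjusted by Benjamini-Hochberg over all probes tested. On simulated data for border against sham (12360 probes, 100 changed at each size), the fit recovered 25% of changes of 1 log2 unit and 84% of changes of 2, with 7 false calls. The simulated noise was independent for each probe and array, with no brightness, background or slide effect. The false calls there therefore do not measure the error in the real arrays. Where a gene was well above background on no sham array, the fold is a bound: the border mean over the lowest signal of a probe above background on each sham array, or the gene's own if higher. For SLC2A5 the gene's own sham values were higher, so its fold is the plain difference and no bound. No array had a saturated probe in these groups.

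Names came from RefSeq's sheep gene table (assembly ARS-UI_Ramb_v3.0, names only), by symbol, accession or gene ID, or from the files' descriptions: 1723 of 15008 probes received 1 of 1059 names, so list counts cover a minor share of the array. Named are the 12 largest calls with groups that do not overlap in each direction, up to 4 members of each list by size of the moderated statistic, and a set of 32 genes. MIF, HK1, ANGPT2, PCNA, ACVR2A and GDF9 were named after their values were seen. Genes withheld from this text are not reported here and were left out of the lists. The lists and genes were chosen with earlier results of these data known. Infarct and border arrays of 1 number deviated together (r from 0.111 to 0.341). Numbers follow slides, and the labels do not tie numbers to animals. The cause of the shared deviations was not tested. The array number limits the precision.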

Additional observations from a re-analysis of the deposited data

Results flagged for a closer look

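The border effect differed between adolescents and fetuses in limma's test of the difference for 12 of the genes named above (adjusted p under 0.05). Values are the adolescent effect minus the fetal effect, each border minus sham, in log2 units. It was 4.84 for CCNA2, 4.26 for TYMS, 3.42 for CCNB1 and 3.03 for CDK1, whose fetal effects were -0.16, 0.61, 0.44 and 0.20. For PTX3 it was 3.67, for INHBA 3.13, for LDHA 2.62, for CXCR4 2.40 and for PLAU 2.05. It was below 0 for DBP at -1.94, for ALDOA at -1.24 and for GAPDH at -0.96, the last with an adjusted p of 0.0494. With normexp no difference passed, and those of CXCR4, PTX3 and PLAU changed sign. With the brightness covariate 15 probes passed in all. CCNA2, TYMS, PTX3 and CXCR4 were not well above background on either adolescent sham array, so the sizes of their differences are uncertain. Dixon's ratio for outlying arrays was not applied to groups of 2 or 3.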

How the results depend on the processing

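The count of border against sham calls, 3196, was 1710 to 4258 when single arrays were left out, 34 with normexp, 501 with the 5 arrays alone and 522 with the brightness covariate; it stayed within 1.5 times under quantile normalization, array median, another percentile set, deposited values, other filters, array weights, adolescent arrays alone and the mean of a gene's probes. The array median moved the median of all probes from -0.14 to -0.25 and normexp to -0.38. With the array median, 39.7% of calls were higher, against 49.6%. The replicate block (slide) gave 3390 calls; border and sham share numbers 2 and 3 alone, whose deviations correlated at -0.085 and -0.019, so the numbers do not pair them. Border against remote (3223) gave 1592 to 4138 without single arrays, 4 with normexp, 5727 with array weights and 3574 with the block. Infarct against border (3222) gave 1427 to 3209 without single arrays (1986 without infarct 3, 1427 without border 3), 1701 with normexp, 678 with the brightness covariate, 2100 with adolescent arrays alone and 3575 with the block; 59.1% were higher with deposited values, against 41.2%. The age difference (226) gave 64 to 1273 without single arrays, 342 with quantile normalization, 0 with normexp, 15 with the brightness covariate, 1341 with array weights, 147 with no filter and 262 with the block; 51.7% were more positive with deposited values, against 84.5%. With normexp these differences changed sign: IL1A -0.24, IL1B -0.54, CXCL8 -0.14, CXCR4 -0.27, PTX3 -0.20, CD40 -0.13, MMP9 -0.35, SLC2A1 -0.38, GUCY1B1 -0.16, ANGPT2 -0.17 and ICAM1 -0.0068 against sham; in infarct against border CXCR4 -0.42, CD40 -0.14 and GAPDH 0.027; in the age difference CXCR4 -0.21, PTX3 -0.19 and PLAU -0.017. With the brightness covariate TGFB1 turned to -0.059 and GJA1 to 0.013. Of the 101 genes called and named, 98 kept the call with quantile normalization, 99 with the block, 38 with the 5 arrays alone, 21 with the brightness covariate and 3 with normexp; the cause was not tested. Probes near background, most of all on sham 3, limit the values of dim genes.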
